A study of Mus musculus with 20 samples.

Results

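Monocytes and dendritic-like cells of the mouse spinal cord were taken as the cells that the study's own clustering placed in cluster 3 of 14 clusters. They numbered 1067 of 21016 cells. The cells came from C57BL/6J female mice of 8 to 10 weeks, fed vehicle chow or chow with 1200 ppm PLX5622, a small-molecule inhibitor of the receptor kinase Csf1r, beginning 2 weeks ahead of surgery. Surgery was a laminectomy alone (sham) or a contusion of 75 kdyne at thoracic level 9. Cord tissue of 1 cm with its meninges was taken without perfusion at 7 or 28 days post-injury (dpi), and the sham label names both days. Each of the 6 libraries was 1 pool of 3 to 4 mice, so every condition had 1 library and no comparison between conditions has a replicate check. Vehicle libraries held 75 (sham), 602 (7 dpi) and 284 (28 dpi) cells of the cluster, and PLX5622 libraries held 14, 29 and 63 in the same order. All intervals below are 95% intervals for counting error only, and none covers the spread between mice. Those of levels and ratios treat each UMI as independent, so they also leave out the spread between the cells of a library and are too narrow where few cells hold a gene.

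Monocytes are blood cells made in bone marrow that enter injured tissue through the chemokine receptor Ccr2 and there become macrophages or dendritic-like cells. Dendritic cells take up antigen and show peptides of it to CD4+ T cells on MHC class II, a surface pair of an alpha chain (H2-Aa) and a beta chain (H2-Ab1 or H2-Eb1) that is assembled with the invariant chain Cd74. Monocyte-derived and type 2 dendritic cells of the mouse carry the lectin Cd209a, type 1 dendritic cells carry Clec9a and Xcr1, and plasmacytoid dendritic cells carry Siglech. Retnla is a secreted protein of alternatively activated macrophages. Classical monocytes and macrophages need Csf1r signals to differing degrees, and dendritic cells depend mainly on the receptor Flt3.

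MHC class II genes share short promoter elements, and the proximal promoters of the alpha and beta chain genes that mark these cells are shown for that reason. The H2-Aa stretch is chr17:34287824-34287924 on the minus strand and the H2-Eb1 stretch is chr17:34305755-34305862 on the plus strand (GRCm38.p6, sequences from RefSeq). Capitals mark CTGATTGG, the Y box with its flanking bases.
H2-Aa: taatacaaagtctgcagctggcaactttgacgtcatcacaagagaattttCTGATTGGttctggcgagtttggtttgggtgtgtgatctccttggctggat
H2-Eb1: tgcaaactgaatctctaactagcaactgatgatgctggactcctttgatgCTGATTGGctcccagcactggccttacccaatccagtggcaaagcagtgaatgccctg
The motif starts 51 bases ahead of the H2-Aa start and 62 bases ahead of the H2-Eb1 start, on the strand of the gene in both. On either strand it was present in 1258 of 32851 promoter windows of 250 bases, 3.83%. A match is a description of letters only.

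The label was checked against its markers. Ccr2, Cd209a, H2-Aa, H2-Eb1 and Retnla each had their highest level of the 14 clusters in cluster 3. Levels are UMIs of the gene per 1000000 UMIs of the summed cells (CPM), and the cluster held 656 CPM of Ccr2, 161 of Cd209a, 3976 of H2-Aa, 3321 of H2-Eb1 and 845 of Retnla. The cells were clustered on these genes, so the ranks are a description. The genes of highest fold over all other cells were in part those of macrophages: after Retnla came Timd4, Cd209a, Serpinb2, Mcpt2, Alox15, Vsig4, Cd163, Selp and Marco, of which Timd4, Serpinb2, Alox15, Vsig4, Selp and Marco are on the Prg4 and Alox15 list described below and Cd163 is on the border macrophage list. MDMs, the study's cluster of monocyte-derived macrophages, held 4.65 CPM of Ccr2 and 40.0 of H2-Aa. Of other genes that the study names for its monocytes, Clec9a and Cd209d ranked 1, Lgals3 and H2-T23 ranked 2 and Ccr9 ranked 3. Lower ranks were those of Fcer1g (4), Ccnd3 (7) and Spp1, the osteopontin gene (10 of 14). The study names Fcer1g for a subset of its monocytes and Spp1 as higher after injury, not as markers of the whole cluster. Prg4, the proteoglycan lubricin, was second to cluster 13, which held 1082 CPM against 229.

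Depth differed among the libraries. Median UMIs per cell of the cluster ran from 1830 to 9405, with the highest median at 7 dpi under PLX5622 and the lowest at 28 dpi under vehicle, and 1 cell held 27.3% of the UMIs of the sham PLX5622 library, whose 14 cells are given as levels only. Cells with over 3000 genes numbered from 0 to 13 per library. Across all cells the libraries shared 44 barcodes in pairs, none of them within cluster 3. T and NK genes summed to between 0 and 36.1 CPM in the cluster against 2756 to 7397 CPM in T cells of the same libraries, with Ncr1 and Cd3e at 0 in all 6 libraries. B cell genes summed to 12.5 to 202 CPM, vessel and fibroblast genes to 16.04 to 62.7 CPM, and neural genes to 101 to 351 CPM. Erythroid genes summed to 1633 CPM in the sham vehicle library and to 22.5 to 101 CPM in the other five. Neutrophil genes summed to 924 CPM at 7 dpi under PLX5622, where 1 cell held nearly all of S100a8 and S100a9, and to 28.9 to 320 CPM elsewhere.

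Some transcripts were as high in cells of other types. Apoe, a lipid carrier of macrophages and microglia, was at 32085 CPM in cluster 3 and 46392 CPM in T cells at 7 dpi under vehicle, and at 34428 and 39061 CPM at 28 dpi. T cells are not known as a source of Apoe, so the levels of Apoe, Ctsd and similar genes of phagocytes in the injured vehicle libraries are not read as expression by the cluster, and where these UMIs came from was not tested. A gene is counted as over free RNA, a name for this background level, where its UMIs per cell were at least 2 times the lowest of T, B and endothelial cells in the library in which it was higher.

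Cells of cluster 3 made up 4.18% (3.30 to 5.21%) of the cells of the sham vehicle library, 8.09% (7.48 to 8.74%) at 7 dpi and 2.88% (2.56 to 3.23%) at 28 dpi. Under PLX5622 the shares were 2.85% (1.56 to 4.73%) in the sham library, 5.75% (3.89 to 8.16%) at 7 dpi and 6.70% (5.19 to 8.49%) at 28 dpi. The vehicle share was highest at 7 dpi, while under PLX5622 the intervals of 7 and 28 dpi overlapped. PLX5622 removes microglia, which enter the total: of cells other than microglia the shares were 6.69, 11.4 and 4.84% under vehicle and 3.02, 6.55 and 7.74% under PLX5622. Against MDMs alone the order was different. Cluster 3 cells were 28.8% of cluster 3 cells and MDMs together in the sham vehicle library, 16.6% at 7 dpi and 7.90% (7.03 to 8.83%) at 28 dpi. They were 60.9, 22.5 and 28.1% (22.3 to 34.5%) of that sum under PLX5622. At 28 dpi there were thus 11.7 MDMs for each cell of the cluster under vehicle and 2.56 under PLX5622.

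**Figure D1:**
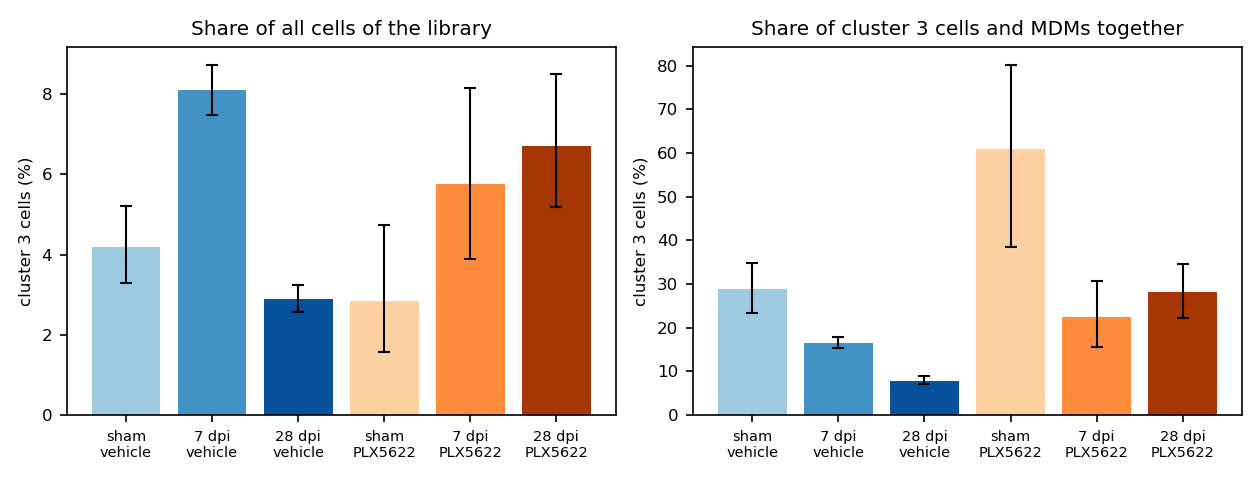
Share of cluster 3 cells (%) in each of the 6 libraries, of all cells (left) and of cluster 3 cells and MDMs together (right), with exact binomial 95% intervals. The vehicle share of all cells is highest at 7 dpi (8.09%), and the share against MDMs is lowest at 28 dpi under vehicle (7.90%).

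The cluster was a mixture, described by counting the cells that held UMIs of at least 3 genes of a list. The plan had set at least 2 genes, and counts at 2 genes are also given for the border macrophage, plasmacytoid and type 1 dendritic cell lists. Such a class is a range of cells and not a type, and deeper cells reach it more easily, so shares are also given with every cell thinned to 1000 UMIs, which leaves out 9, 21 and 39 cells of the vehicle libraries and 3, 1 and 2 of the PLX5622 libraries. The 12-gene list of classical monocytes (Ccr2, Ly6c2, Plac8, Chil3 and others) was reached by 72.0% of sham, 70.1% of 7 dpi and 44.4% of 28 dpi cells in the vehicle libraries, and by 57.1, 82.8 and 50.8% in those of PLX5622. After thinning these were 56.1, 40.6 and 29.8% in the vehicle libraries and 5 of 11, 14 of 28 and 16 of 61 cells in those of PLX5622, and among thinned T cells the largest share was 3 of 23.

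Cells with at least 3 genes of the 8-gene border macrophage list (Mrc1, Cd163, Lyve1, Pf4, Cbr2, Folr2, Ms4a7, Clec4n), whose members mark macrophages of meninges and vessels, were 26 of 75 in the sham vehicle library, 90 of 602 at 7 dpi and 62 of 284 at 28 dpi. Under PLX5622 they were 0 of 14, 2 of 29 and 0 of 63. The limit that a count of 0 allows is taken as 3 counts of the total, here 4.76% of 63 cells. Thinned, the vehicle shares were 24.2, 6.20 and 15.5%, and all 3 PLX5622 libraries had 0 such cells. No thinned T cell reached the class. At a cut of 2 genes the counts were 28 of 75, 182 of 602 and 88 of 284 under vehicle. Under PLX5622 they were then 0 of 14, 7 of 29 and 2 of 63, so the low unthinned count at 7 dpi rests on the cut. Thinned at 2 genes, 14.1% of cells at 7 dpi under vehicle and 1 of 28 under PLX5622 qualified.

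A second set of cells carried Prg4, the lipid oxygenase Alox15, the protease inhibitor Slpi and the B cell chemokine Cxcl13. The 16-gene list used for them also holds Gata6, a transcription factor of macrophages of the serous cavities, and was written after the values were seen. Cells with at least 3 of its genes were 4 of 75 in the sham vehicle library, 57 of 602 at 7 dpi and 55 of 284 at 28 dpi. Under PLX5622 they were 1 of 14, 0 of 29 and 0 of 63, and 0 of 29 allows up to 10.3%. Prg4 and Alox15 were found in the same cells: 44 of the 46 cells with Prg4 at 7 dpi and 40 of 46 at 28 dpi also held Alox15. These cells had few of the cluster's defining transcripts, with H2-Aa in 8 of 46 and 7 of 46 and Ccr2 in 4 of 46 and 1 of 46. As sums, the 55 cells of the class at 28 dpi held 6204 CPM of the matrix gene Fn1 against 447 CPM in the other 229 cells, 11197 against 83.1 CPM of Slpi, 156 against 5328 CPM of H2-Aa and 10.4 against 548 CPM of Ccr2. Slpi chose the class, so its difference is partly fixed by the choice, while Fn1, H2-Aa and Ccr2 are not on the list.

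After thinning, plasmacytoid genes stood out at 28 dpi under PLX5622. Cells with at least 3 genes of the plasmacytoid list (Siglech, Ccr9, Tcf4, Bst2 and others, 7 of them in the count table) were 15 of 63 there, and 4 of 29 at 7 dpi under PLX5622, against 9 of 75, 19 of 602 and 11 of 284 under vehicle. Thinned, 8 of 61 cells (13.1%) qualified at 28 dpi under PLX5622, 0 of 28 at 7 dpi under PLX5622 and at most 0.861% in each vehicle library. Of the 17 cells with Siglech in that library, 12 also held the gut-homing receptor Ccr9 and 9 held Cox6a2, whereas 2 of 22 cells with Siglech at 28 dpi under vehicle held Ccr9. Siglech is also made by microglia, and in the injured vehicle libraries its UMIs per cell did not exceed free RNA. At a cut of 2 genes of the list, unthinned, 25 of 63 cells qualified at 28 dpi under PLX5622 and 16 of 29 at 7 dpi. The vehicle counts were then 25 of 75, 156 of 602 and 62 of 284. Thinned at 2 genes, 21.3% qualified at 28 dpi under PLX5622, 0 of 28 at 7 dpi under PLX5622 and at most 8.16% in each vehicle library.

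Type 1 dendritic cell genes (3 or more of 10) were found in 9 of 75, 55 of 602 and 13 of 284 cells under vehicle and in 1 of 14, 1 of 29 and 6 of 63 under PLX5622. Thinned, these were 0 of 66, 19 of 581 and 7 of 245 under vehicle and 0 in each PLX5622 library. That absence rests on the cut of 3 genes. At 2 genes, thinned, they were 1 of 66, 39 of 581 and 10 of 245 under vehicle and 0 of 11, 0 of 28 and 7 of 61 under PLX5622. The shares at 28 dpi were then 4.08% under vehicle and 11.5% under PLX5622, with overlapping intervals. Clec9a and Xcr1 were found together in 21 of the 32 cells with Clec9a at 7 dpi under vehicle. Genes of migratory dendritic cells such as Ccr7 and Fscn1 reached the class in 7 cells at 28 dpi under vehicle and in 4 at 28 dpi under PLX5622, and in at most 3 in any other library. Thinned, they reached it in 7 cells at 28 dpi under vehicle, 1 at 28 dpi under PLX5622 and 0 in the other libraries. Nonclassical monocyte genes (at least 2 of 7, among them Ear2 and Nr4a1) were held after thinning by 13.6% (6.43 to 24.3%) of sham vehicle cells, 3.61% (2.25 to 5.47%) at 7 dpi and 4.49% (2.26 to 7.89%) at 28 dpi. Under PLX5622 they were held by 3 of 11 thinned cells in sham, 1 of 28 at 7 dpi and 2 of 61 at 28 dpi. Cell cycle genes reached 3 in at most 26 cells of a library and, thinned, in at most 2.

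**Figure D2:**
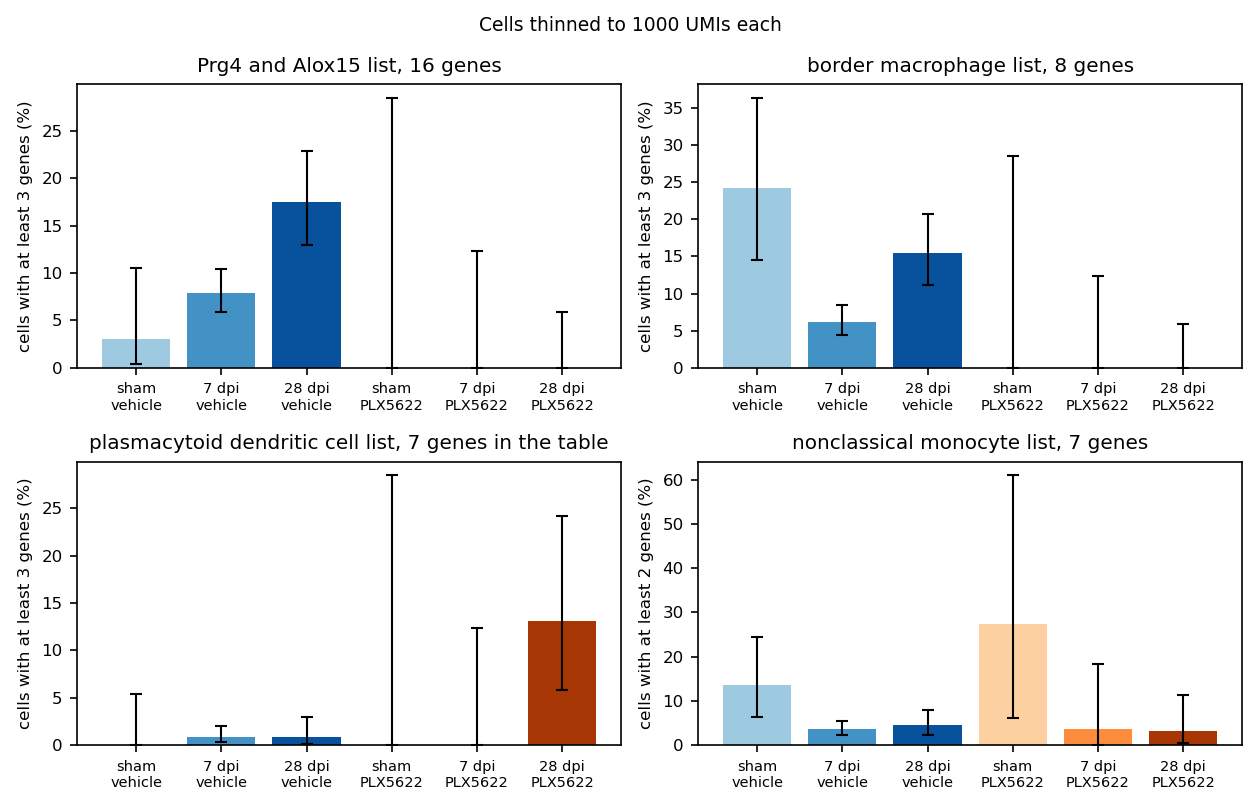
Share of cells (%) with at least 3 genes (2 for the nonclassical list) of 4 lists in each library after thinning every cell to 1000 UMIs, with exact binomial 95% intervals. Cells with Prg4 and Alox15 genes and border macrophage genes appear in the vehicle libraries, and plasmacytoid genes reach 13.1% of cells at 28 dpi under PLX5622.

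The 5 defining genes were read in every library. Ccr2 was at 1159 CPM in the sham vehicle library, 589 at 7 dpi and 386 at 28 dpi, and at 1416, 761 and 655 CPM in the PLX5622 libraries in that order. It was lower in both injured libraries than in the sham library of either diet. After thinning, Ccr2 was found in 45.5, 38.6 and 25.3% of vehicle cells and 54.5, 46.4 and 36.1% of PLX5622 cells, against 4.76 to 20.3% of T cells, some of which make it. Cd209a was at 173, 119 and 138 CPM under vehicle and at 100, 274 and 398 CPM under PLX5622. Cells with Cd209a nearly always held H2-Aa, in 87 of 90 at 7 dpi under vehicle and in 26 of 29 at 28 dpi under PLX5622. Thinned, Cd209a was found in 6.06 to 9.81% of vehicle cells. Under PLX5622 it was found in 1 of 11 sham cells, 3 of 28 at 7 dpi (10.7%) and 21.3% at 28 dpi.

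H2-Aa was at 4845, 3304 and 3767 CPM under vehicle and at 2482, 5074 and 7284 CPM under PLX5622. H2-Eb1 followed with 3803, 2801 and 2947 CPM under vehicle and 1943, 4059 and 6748 CPM under PLX5622. Both were highest at 28 dpi under PLX5622 and both stayed at or under 135 CPM in T cells. Retnla was at 3123, 693 and 604 CPM in the vehicle libraries, where it came from 8, 25 and 9 cells, and at 0 in the PLX5622 libraries. 1 cell held 70.3% of the sham UMIs. In the unfiltered sham PLX5622 matrix 14 UMIs of Retnla are present, since the count table sets genes found in few cells of a library to 0. At 7 and 28 dpi under PLX5622 Retnla is at 0 in the unfiltered matrices too. For 0 of 29 and 0 of 63 cells, 3 counts of the total are 10.3 and 4.76% of cells with a UMI, above the 4.15 and 3.17% of vehicle cells, so a lower share of cells with a Retnla UMI was not detectable at this number of cells.

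**Figure D3:**
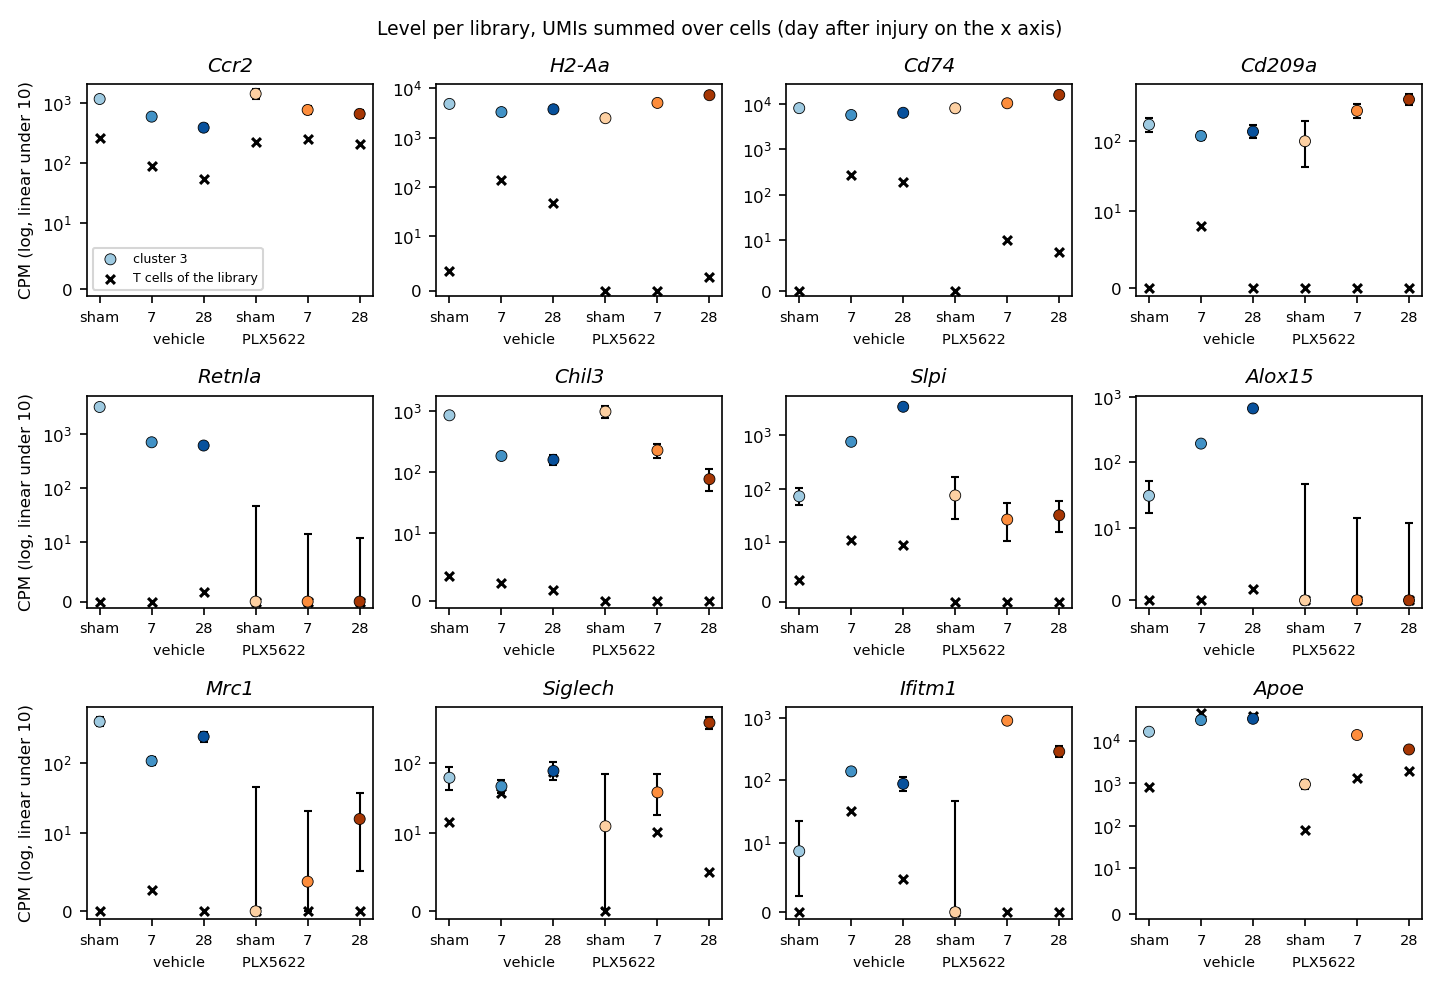
Level (CPM, log axis, linear under 10) of 12 genes in cluster 3 of each library, with exact Poisson 95% intervals, and in T cells of the same library (crosses). H2-Aa, Cd74, Cd209a and Siglech are highest at 28 dpi under PLX5622, Slpi and Alox15 are highest at 28 dpi under vehicle, and Apoe in the injured vehicle libraries is no higher than in T cells.

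Injury was first compared with sham at 7 dpi under vehicle. The cells at 7 dpi held less of the genes of classical monocytes, of border macrophages and of the immediate early response than sham cells, and more of the Prg4 and Alox15 genes. A gene counted as measured where the sum of its UMIs over the pair of libraries reached 100. Among 3387 such genes 118 were at least 2-fold higher (3.48%) and 187 at least 2-fold lower (5.52%) at 7 dpi. Of these, 71 and 172 were over free RNA. The median of all genes was -0.16 on the log2 scale, and scaling by edgeR's TMM factors gave 211 higher and 93 lower, so the balance of the directions rests on the scaling and ratios are read against that median.

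Of 10 measured genes of the classical monocyte list, 0 were at least 2-fold higher and 6 at least 2-fold lower, with a median log2 ratio of -1.13. Chil3, a chitinase-like secreted protein, was at 860 CPM in sham and 185 CPM at 7 dpi, a log2 ratio of -2.22 (-2.42 to -2.01). F13a1, the coagulation factor XIII A chain, went from 849 to 205 CPM (log2 ratio -2.05) and Hp, haptoglobin, from 375 to 91.8 CPM (-2.03). Ly6c2, the surface antigen that defines classical monocytes, was at 557 and 262 CPM (-1.09, -1.31 to -0.87), the lipopolysaccharide co-receptor Cd14 at 404 and 108 CPM (-1.90), and Ccr2 just missed the fold at -0.98. Fn1 and the lysozyme gene Lyz2 were the 2 members above 0. At 7 dpi Fn1 was at 7109 CPM in the 57 cells of the Prg4 and Alox15 class and at 709 CPM in the other 545 cells.

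Border macrophage genes had 5 of 7 measured members at least 2-fold lower and 0 higher, with a median of -1.43. Lyve1, a hyaluronan receptor, was at 373 CPM in sham and 44.1 CPM at 7 dpi (log2 ratio -3.08, -3.46 to -2.71), the folate receptor Folr2 at 342 and 74.8 CPM (-2.19), and the mannose receptor Mrc1 at 393 and 108 CPM (-1.86). Of the immediate early and stress list, 8 of 13 genes were at least 2-fold lower and all 13 were below 0, with a median of -1.48. The transcription factor Fos was at 1769 CPM in sham and 597 CPM at 7 dpi (-1.57), Klf2 at 1339 and 274 CPM (-2.29), Klf4 at 450 and 132 CPM (-1.77) and the phosphatase Dusp1 at 827 and 239 CPM (-1.79). The cytokine Il1b was at 244 and 102 CPM (-1.26, -1.59 to -0.92) and the lectin Mgl2 at 191 and 48.6 CPM (-1.97).

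Higher at 7 dpi were Slpi, at 72.4 CPM in sham and 760 CPM (log2 ratio 3.39, 2.90 to 3.94), Alox15, at 30.7 and 193 CPM (2.65, 1.89 to 3.53), and Prg4, at 4.39 and 212 CPM, from 2 UMIs in sham (5.59, 3.73 to 8.64). Without the cells of the Prg4 and Alox15 class Slpi was at -0.72. Thbs1, the matrix protein thrombospondin 1, was at 48.3 and 205 CPM (2.09), but at -0.044 with each cell weighted alike. H2-Oa, which tempers peptide loading of MHC class II, was at 17.6 and 89.5 CPM (2.35, 1.34 to 3.58), and Arg1, the arginase of alternatively activated macrophages, at 13.2 and 50.5 CPM (1.94, 0.77 to 3.42). At 7 dpi Arg1 was at 265 CPM in the 57 cells of the Prg4 and Alox15 class and at 22.3 CPM in the other 545 cells.

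Of 9 measured MHC class II genes, 2 were at least 2-fold higher (H2-Oa and H2-Ob) and 5 were below 0, each by less than 2-fold. The median was -0.43, H2-Aa was at -0.55 (-0.62 to -0.48) and Cd74 at -0.50 (-0.55 to -0.45). The list median was 0.036 with cells thinned to equal depth, so no direction is read from it. Among the genes of lowest ratio were genes of platelets and red cells, with Gng11 at 382 and 5.51 CPM (-6.12) and the hemoglobin gene Hba-a2 at 983 and 61.5 CPM (-4.00). 8 of 75 sham cells held at least 3 of the platelet genes against 1 of 602 at 7 dpi, and the part of such cells in the other differences was not tested.

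The comparison of 28 dpi with sham under vehicle shares the sham library with the one before. Monocyte genes and S100 genes were lower at 28 dpi, and the Prg4 and Alox15 genes were higher by more than at 7 dpi. Of 1556 genes measured, 46 were at least 2-fold higher (2.96%) and 71 at least 2-fold lower (4.56%), of which 25 and 70 were over free RNA. The median of all genes was -0.20, and TMM scaling gave 79 higher and 43 lower.

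Slpi was at 72.4 CPM in sham and 3438 CPM at 28 dpi (log2 ratio 5.57, 5.07 to 6.11), Alox15 at 30.7 and 665 CPM (4.44, 3.67 to 5.32) and Cxcl13 at 76.8 and 745 CPM (3.28, 2.78 to 3.82). Thbs1 was at 48.3 and 411 CPM (3.09), the fatty acid carrier Fabp4 at 30.7 and 182 CPM (2.57), the laminin receptor subunit Itga6 at 50.5 and 259 CPM (2.36), the endothelin receptor Ednrb at 37.3 and 176 CPM (2.24), and Fn1 at 992 and 2185 CPM (1.14). All 8 genes sat mainly in the Prg4 and Alox15 class. Without those cells Slpi was at 0.09, Thbs1 at 0.27, Fabp4 at -0.073, Itga6 at 0.16, Ednrb at 0.19 and Fn1 at -1.18.

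Of the 6 S100 genes, calcium-binding proteins of myeloid cells, 5 were at least 2-fold lower, with a median of -1.43. S100a4 was at 2124 CPM in sham and 681 CPM at 28 dpi (log2 ratio -1.64, -1.81 to -1.48) and S100a6 at 2598 and 834 CPM (-1.64). The monocyte list had 5 of 10 genes at least 2-fold lower and Fn1 higher, with a median of -1.02. Ccr2 was at -1.59 (-1.81 to -1.37) and Chil3 at 860 and 160 CPM (-2.43).

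Other genes were chosen from those of lowest ratio. The cytokine signalling inhibitor Socs3 was at 202 and 47.1 CPM (log2 ratio -2.10), the transcription factor Irf5 at 257 and 76.8 CPM (-1.74), Il1b at 244 and 64.3 CPM (-1.92) and the filament protein Vim at 2423 and 682 CPM (-1.83). Klf4 (-1.74) and Fos (-1.56) were lower by about as much as at 7 dpi, and 3 of 11 immediate early genes passed the fold, with a median of -0.66. Of 3 measured interferon-stimulated genes, the ubiquitin-like Isg15 was at 81.2 and 173 CPM (1.09) and the transcription factor Irf7 at 61.5 and 138 CPM (1.17), though Isg15 was at 0.24 after thinning. The chemokine Ccl8 was at 0 in sham and 201 CPM at 28 dpi in 16 cells, at least 30.5-fold higher than the floor of 3 counts. The genes given such a bound, here and below, are at 0 in the unfiltered matrix of that library as well. MHC class II genes had a median of -0.37, with Cd74 at -0.34 and H2-Aa at -0.36, which turned to 0.18 for both after thinning.

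Between the injured vehicle libraries, cells at 28 dpi held more border macrophage and Prg4 and Alox15 transcripts than cells at 7 dpi and less of the S100 genes. The alternative activation list was split, with 3 of 10 genes at least 2-fold higher (Mrc1, Mgl2 and Cd163) and 2 lower (Arg1 and Tgm2). Of 3497 genes measured, 58 were at least 2-fold higher (1.66%) and 68 at least 2-fold lower (1.94%) at 28 dpi, and 53 and 51 of them were over free RNA. The median of all genes was -0.05.

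In the border macrophage list 5 of 8 genes were at least 2-fold higher and Clec4n was lower, with a median of 1.20. Cd163, the hemoglobin-haptoglobin scavenger receptor, was at 19.7 CPM at 7 dpi and 130 CPM at 28 dpi (log2 ratio 2.72, 2.17 to 3.29), Lyve1 at 44.1 and 242 CPM (2.45), Mrc1 at 108 and 240 CPM (1.15) and Pf4, platelet factor 4, at 511 and 1640 CPM (1.68). Cells with Lyve1 were 21 of 602 and 34 of 284. Pf4 is also a platelet gene, and the platelet list summed to 573 CPM at 7 dpi and 2349 CPM at 28 dpi, whose part in the difference was not tested. Vsig4, a complement receptor of resident macrophages, was at 23.9 and 132 CPM (2.46), and Ccl8 at 27.1 and 201 CPM (2.89).

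The Prg4 and Alox15 genes were higher, and cells of the class were 9.47% of the cells at 7 dpi and 19.4% at 28 dpi. Prg4 was at 212 and 682 CPM (log2 ratio 1.69), Alox15 at 193 and 665 CPM (1.79) and Slpi at 760 and 3438 CPM (2.18). Mgl2 was at 48.6 and 127 CPM (1.38), F13a1 at 205 and 414 CPM (1.01) and Klf2 at 274 and 703 CPM (1.36). Of the monocyte list F13a1 alone, 1 of 10, was past the fold, with a median of 0.41, and Ccr2 was at -0.61 (-0.81 to -0.41).

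Lower at 28 dpi were the phosphatase Acp5, at 178 and 34.5 CPM (log2 ratio -2.36), the transglutaminase Tgm2, at 91.8 and 18.8 CPM (-2.29), the lectin Clec4n, at 107 and 25.1 CPM (-2.09), the protease inhibitor Cstb, at 661 and 191 CPM (-1.79), and the stress factor Atf3, at 131 and 40.8 CPM (-1.69). Arg1 was at 50.5 CPM in 38 cells at 7 dpi and at 0 at 28 dpi, at least 10.7-fold lower. Galectin 3 (Lgals3) was at 1771 and 747 CPM (-1.25, -1.39 to -1.11). All 6 S100 genes were below 0 and 3 passed the fold, S100a4 (-1.06), S100a6 (-1.01) and S100a11 (-1.24), with a median of -0.86. MHC class II genes were level, with 0 of 9 past the fold, a median of 0.07, H2-Aa at 0.19 (0.12 to 0.26) and Cd74 at 0.16 (0.11 to 0.21).

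PLX5622 was compared with vehicle at 7 dpi over 29 and 602 cells. As sums of UMIs, cells under PLX5622 held more Ifitm1, Cxcr4, Cd209a and galectin 3, and less of the Prg4 and Alox15 transcripts. The latter summed to 2110 CPM under vehicle and 45.6 CPM under PLX5622. Cells of the Prg4 and Alox15 class were 57 of 602 under vehicle, 9.47%, and 0 of 29 under PLX5622, which allows up to 10.3%. A lower share of such cells was therefore not detectable at this number of cells. Border macrophage genes summed to 1284 and 582 CPM, most of the latter from Ms4a7, at 389 and 441 CPM. Of 3098 genes measured, 66 were at least 2-fold higher (2.13%) and 136 at least 2-fold lower (4.39%), of which 63 and 64 were over free RNA. For 123 of the 136 the interval of the ratio lay below 0, and 11 were at 0 under PLX5622. The median of all genes was 0.02, and TMM scaling gave 43 higher and 178 lower.

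Ifitm1, an interferon-induced membrane protein, was at 139 CPM under vehicle and 902 CPM under PLX5622 (log2 ratio 2.70, 2.45 to 2.95), in 78 of 602 and 12 of 29 cells. The chemokine receptor Cxcr4 was at 64.3 and 293 CPM (2.19, 1.77 to 2.60), in 21 of 29 cells under PLX5622. These cell counts of Ifitm1 and Cxcr4 are unthinned, and the median cell held 2990 UMIs under vehicle and 9405 under PLX5622. The interleukin 7 receptor gene Il7r was at 44.5 and 145 CPM (1.70), the amidohydrolase gene Amdhd2 at 66.5 and 194 CPM (1.54) and AA467197 at 85.4 and 278 CPM (1.70). Lgals3 was at 1771 and 4032 CPM (1.19, 1.09 to 1.29), Cd209a at 119 and 274 CPM (1.20, 0.80 to 1.58), and Klrd1, a lectin of NK cells and of some dendritic cells, at 135 and 278 CPM (1.04). Cd209a was held by 90 of 602 and 6 of 29 cells, and after thinning by 9.81 and 10.7% of cells, with overlapping intervals. Thbs1 was at 205 and 434 CPM (1.08), Tgm2 at 91.8 and 202 CPM (1.14), the nonclassical MHC class I gene H2-T23 at 101 and 217 CPM (1.10) and the monocyte attractant Ccl2 at 137 and 278 CPM (1.02). Without cells holding 2 genes of a dendritic cell list, which were 20 of the 29, Ifitm1 was at 0.19, Il7r at -0.56 and Klrd1 at -1.31.

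Of 9 measured MHC class II genes, 6 were above 0, 3 were below it (H2-Oa, H2-Ob and the regulator Ciita) and 0 were past the fold, with a median of 0.46. Cd74 was at 5680 and 10278 CPM (log2 ratio 0.86, 0.80 to 0.92), H2-Aa at 0.62 (0.53 to 0.70) and H2-Eb1 at 0.53 (0.44 to 0.63). Without the 20 cells with dendritic cell genes the median was -0.37. The S100 list had a median of 0.90. S100a4 was at 1422 and 2602 CPM (0.87), while the 2 members past the fold, S100a8 (1.74) and S100a9 (1.70), were neutrophil genes of which 1 cell held 99.1% and 100% of the UMIs. Ccr2 was at 589 and 761 CPM (0.37, 0.15 to 0.59), and the monocyte list had a median of 0.30 with Fn1 alone past the fold.

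Fn1 was at 1452 CPM under vehicle and 426 CPM under PLX5622 (log2 ratio -1.77), and at -0.74 without the Prg4 and Alox15 class. The chemokine Ccl6 was at 1073 and 285 CPM (-1.91, -2.26 to -1.58), and Klf2 at 274 and 64.7 CPM (-2.08). Of the chemokine list, 6 of 10 genes were at least 2-fold lower and Ccl2 higher, with a median of -1.40, which was 0.52 after thinning. Mrc1 was at 108 and 3.80 CPM, from 1 UMI under PLX5622 (-4.83, -10.1 to -2.33), Pf4 at 511 and 26.6 CPM (-4.26) and Slpi at 760 and 26.6 CPM (-4.83). Slpi sat mainly in the Prg4 and Alox15 class, for which a lower share of cells was not detectable here. The border macrophage list had 3 of 5 genes at least 2-fold lower, with a median of -2.71, and -0.25 after thinning, at which depth Mrc1 is near 1 UMI.

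At 28 dpi PLX5622 was compared with vehicle over 63 and 284 cells. Cells under PLX5622 held more MHC class II, Cd209a and plasmacytoid transcripts and less of the border macrophage, Prg4 and Alox15, chemokine and immediate early genes. The monocyte list was mixed, with a part of its genes lower. Of 1184 genes measured, 35 were at least 2-fold higher (2.96%) and 155 at least 2-fold lower (13.1%), of which 33 and 107 were over free RNA. 12 of the 155 were at 0 under PLX5622. The median of all genes was -0.04, and scaling by DESeq2's size factors gave 52 higher and 129 lower, and totals without ribosomal protein genes 55 and 127.

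All 7 measured MHC class II genes were above 0 and 5 were at least 2-fold higher, with a median of 1.15 on the log2 scale against -0.04 for all genes. Cd74 was at 6353 CPM under vehicle and 15697 CPM under PLX5622 (log2 ratio 1.30, 1.24 to 1.37), H2-Eb1 at 2947 and 6748 CPM (1.20, 1.10 to 1.29), H2-Ab1 at 2959 and 6584 CPM (1.15) and H2-Aa at 3767 and 7284 CPM (0.95, 0.87 to 1.03). The peptide-loading genes H2-DMb1 (1.07) and H2-Oa (1.31) were past the fold as well. Without the Prg4 and Alox15 class, which held little of these transcripts, the median was 0.67, with Cd74 at 0.81, H2-Eb1 at 0.69 and H2-Aa at 0.45.

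The 4 genes H2-Aa, H2-Ab1, H2-Eb1 and Cd74 were also read per cell, as a share of its UMIs. The median cell at 28 dpi held 0.408% under vehicle and 3.67% under PLX5622. Outside the Prg4 and Alox15 class, which had no cells at 28 dpi under PLX5622, the vehicle median was 1.58% over 229 cells. The medians of the sham libraries were 0.0785% (vehicle) and 0% (PLX5622) and those at 7 dpi 0.388% (vehicle) and 0.738% (PLX5622). Cells with at least 1% were 131 of 284 under vehicle, 46.1% (40.2 to 52.1%), and 39 of 63 under PLX5622, 61.9% (48.8 to 73.9%). Among cells of vehicle cords outside the Prg4 and Alox15 class the share was 56.3% (49.6 to 62.9%), an interval that overlaps the one under PLX5622. Among cells with at least 1% the median was 3.75% under vehicle and 5.30% under PLX5622.

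**Figure D4:**
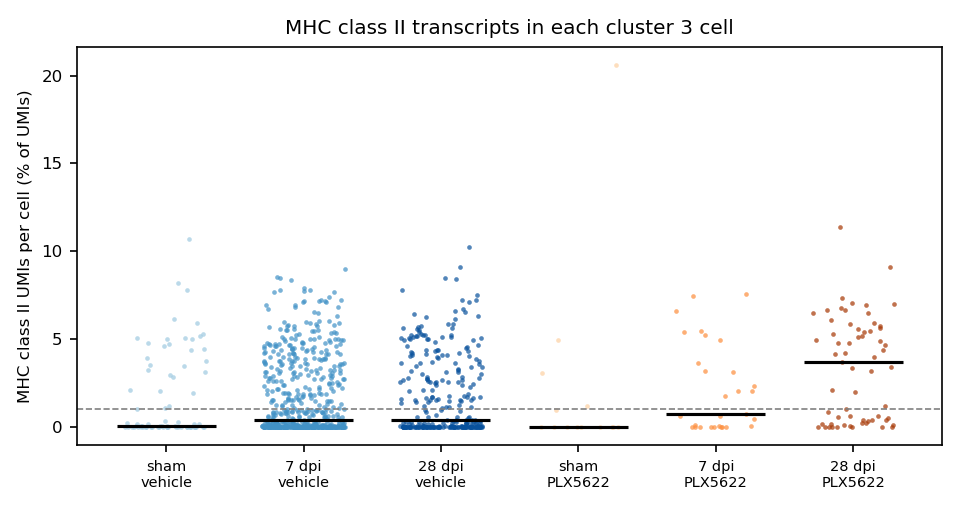
UMIs of H2-Aa, H2-Ab1, H2-Eb1 and Cd74 as a share (%) of each cell's UMIs, with 1 point per cluster 3 cell and black bars at the medians. The dashed line marks 1%, and the median is highest at 28 dpi under PLX5622 (3.67%).

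Dendritic cell genes were mixed: of the monocyte-derived and type 2 list 2 of 4 measured genes were at least 2-fold higher and 2 were below 0, and of the type 1 list 1 of 2 was at least 2-fold higher. Cd209a was at 138 CPM under vehicle and 398 CPM under PLX5622 (log2 ratio 1.53, 1.12 to 1.94), in 31 of 284 and 29 of 63 cells. Klrd1 was at 102 and 507 CPM (2.31, 1.89 to 2.75) and Wdfy4, which type 1 dendritic cells need for cross-presentation, at 61.2 and 209 CPM (1.77). Of the plasmacytoid list, Siglech was at 76.8 and 372 CPM (2.28, 1.78 to 2.79) and the transcription factor Tcf4 at 162 and 388 CPM (1.27), and all 3 measured members were above 0. Bcl11a, a transcription factor of plasmacytoid cells and lymphocytes, was at 43.9 and 324 CPM (2.88, 2.27 to 3.54), Rnase6, a secreted ribonuclease, at 87.8 and 237 CPM (1.43), and Ifitm1 at 87.8 and 289 CPM (1.72). Klrd1 is also an NK gene, and the T and NK list summed to 6.42 CPM in these cells. Ccr2 was at 0.76 (0.49 to 1.04).

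S100a11 was at 246 and 725 CPM (log2 ratio 1.56, 1.26 to 1.86) and S100a4 at 681 and 1486 CPM (1.13), 2 of 4 measured S100 genes past the fold with a median of 0.92. The monocyte list had 5 of 10 genes at least 2-fold lower, 0 at least 2-fold higher and a median of -0.91. Its member Ccr2 was above 0. After thinning, Ccr2 and Plac8 were found in 25.3 and 23.3% of vehicle cells and in 36.1 and 36.1% of PLX5622 cells, with overlapping intervals. Lyz2 was at 2211 and 635 CPM (-1.80, -2.02 to -1.58), F13a1 at 414 and 122 CPM (-1.76) and Chil3 at 160 and 77.0 CPM (-1.05). Fn1 was at 2185 and 513 CPM (-2.09), but at 0.20 without the Prg4 and Alox15 class. In the vehicle cells outside that class Lyz2 was at 1581 CPM. Csf1r, the kinase that PLX5622 inhibits, was at 745 and 273 CPM (-1.45, -1.80 to -1.11), and in T cells at 455 and 33.1 CPM. Across the other libraries Csf1r was at 797 and 622 CPM in sham and 7 dpi vehicle cells and at 489 and 445 CPM in those of PLX5622.

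Slpi was at 3438 and 32.1 CPM (log2 ratio -6.74, -7.81 to -5.86). Prg4 was at 682 CPM under vehicle and 0 under PLX5622, at least 70.9-fold lower, and Alox15 at 665 CPM and 0, at least 69.1-fold lower. Mrc1 was at 240 and 16.04 CPM (-3.90), and Lyve1 and Pf4, at 242 and 1640 CPM under vehicle, were at 0 under PLX5622. All 4 measured border macrophage genes were at least 2-fold lower, with a median of -4.28. These sets sat in few cells: by number of cells, 0 of 63 against 55 of 284 for the Prg4 and Alox15 class and 0 of 63 against 62 of 284 for the border macrophage class, where 0 of 63 allows up to 4.76% and the vehicle shares were 19.4 and 21.8%.

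Of the chemokine list, 4 of 7 genes were at least 2-fold lower, with a median of -1.19 (-0.36 after thinning), and Ccl6 was at 1005 and 440 CPM (log2 ratio -1.19). Thbs1 was at 411 and 19.3 CPM (-4.42, -5.87 to -3.27), and at -1.71 without the Prg4 and Alox15 class. Immediate early genes had 7 of 11 members at least 2-fold lower and 0 higher, with a median of -1.34. Fos was at 599 and 183 CPM (-1.71, -2.14 to -1.31), Dusp1 at 422 and 61.0 CPM (-2.79) and Klf2 at 703 and 103 CPM (-2.77). Isg15 was at 173 and 64.2 CPM (-1.43) and Irf7 at 138 and 38.5 CPM (-1.84).

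**Figure D5:**
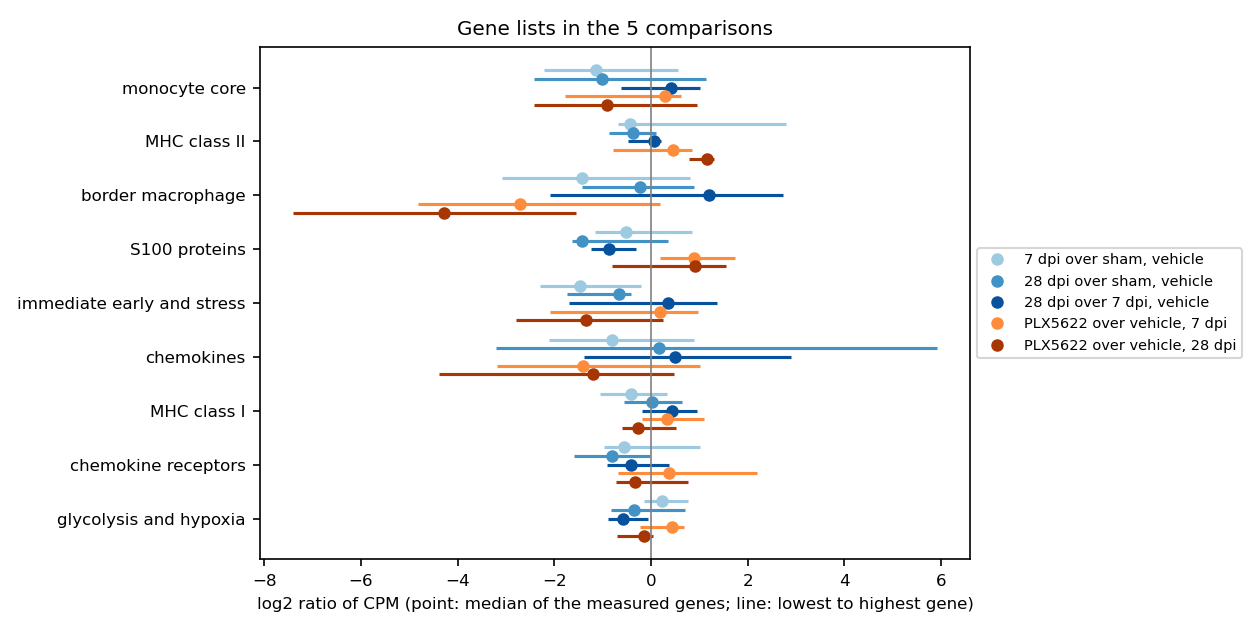
Median log2 ratio of CPM (points) and range over the measured genes (lines) of 9 gene lists in the 5 comparisons, with genes at 0 in 1 library placed at their floor. MHC class II genes are above 0 throughout at 28 dpi for PLX5622 over vehicle (median 1.15), and border macrophage genes are below 0 there (median -4.28).

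Other lists showed fewer genes past the fold. Of MHC class I genes at most 1 of 8 passed in any of the 5 comparisons, with medians from -0.41 to 0.45. Glycolysis and hypoxia genes had 0 past the fold in all 5, with medians from -0.57 to 0.43. Colony-stimulating factor and cytokine receptors had at most 1 of 7 past it, which was the interferon gamma receptor gene Ifngr1 in the sham comparisons and Csf1r at 28 dpi. The lipid and lysosome list of phagocytes had 10 of 17 genes at least 2-fold higher at 7 dpi than in sham, but only 4 of the 17 were over free RNA. At 28 dpi 14 of 16 were lower under PLX5622 than under vehicle, with 3 of the 16 over free RNA, so neither count is read as a difference of these cells. The 3 C1q complement genes, a list added after the values were seen, were lower under PLX5622 by medians of -1.53 and -3.57 at 7 and 28 dpi, and at 7 dpi 0 of the 3 were over free RNA.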

How the data were processed

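Single-cell 10x libraries of dissociated cord, depleted of myelin and dead cells, were prepared by the authors, who made the deposited counts (UMIs per gene and cell, not normalized) with Cell Ranger, version 3.0.2 in the matrix header, and clustered the cells in Seurat. The genome build of the counts is not given in the sources used here. The count table held 21016 cells and 16003 genes. It matched the per-library matrices except for entries set to 0 for genes present in at most 4 cells of a library. The methods state an upper limit of 3000 genes per cell, which some cells in the table exceed. Cluster numbers were taken from the deposited metadata. Bulk libraries were not analysed here.

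UMIs of cluster 3 were summed per library and divided by the total (CPM). Log2 ratios of CPM carry exact conditional binomial intervals, levels exact Poisson intervals and shares Clopper-Pearson intervals, all at 95% and for counting error only. A gene at 0 in 1 library was given a floor of 3 counts. With 1 library per condition no test was made, and 2-fold among genes with at least 100 UMIs over the pair was the rule of size. The deepest and shallowest libraries of the cluster held 2179067 and 79775 UMIs. The ratio and its interval were first checked on simulated counts with known folds. The simulated counts were independent, so the check covers the calculation and not UMIs that sit in few cells. Scrublet in scanpy 1.11.5 called 59 of the 1067 cells doublets, which were kept. Alternatives used edgeR 4.0.16 (TMM factors) and DESeq2 1.42.0 (size factors) for scaling only, weighted or thinned cells, other UMI minimums and subsets of cells. Other software was R 4.3.3, scipy 1.17.1, pandas 2.3.3, numpy 2.4.6 and Python 3.11.15.

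Named genes are members of the gene lists, genes the study names for the cluster, and per comparison the 10 genes of highest ratio and the 10 of lowest ratio that had at least 10 UMIs in each library. The cluster and the lists were chosen with earlier results of these data known, and 3 lists (Prg4 and Alox15 genes, C1q and platelet genes) were added after the values were seen.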

Additional observations from a re-analysis of the deposited data

Results flagged for a closer look

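The log2 ratio of Thbs1 for PLX5622 over vehicle was 1.08 at 7 dpi and -4.42 at 28 dpi, a difference of -5.50. At 28 dpi under vehicle the 55 cells of the Prg4 and Alox15 class held 1216 CPM of Thbs1, against 62.9 CPM in the other 229 cells. Under PLX5622 at 28 dpi 0 of 63 cells were of that class. Without the class the ratio at 28 dpi was smaller in size and still below 0, as given above. The difference was not tested, since each condition was 1 library.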

How the results depend on the processing

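Values below are given against the reported ones. Of 134 log2 ratios of named genes, recomputed 1468 times, 28 reversed in direction and 376 moved beyond their counting interval. Of 24 list medians, recomputed 264 times, 9 reversed. The cause was not tested unless the setting itself names it. No paired analysis was possible because each condition was 1 library. Leaving out the cell with most UMIs of a gene, leaving out cells with at least 3 Prg4 and Alox15 list genes, and keeping only genes over free RNA were chosen after seeing the data. Leaving out the top cell kept the library totals and lowers a library of few cells more. Its gene counts are therefore partly fixed by the unequal numbers of cells, and nothing is read from them. The shares of cluster 3 in sham, 7 dpi and 28 dpi vehicle libraries were 6.69, 11.4 and 4.84% of cells other than microglia, and 2.90, 6.78 and 2.52% without cells holding 2 genes of another cell type.

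Counts of genes at least 2-fold higher at 7 dpi than in sham were 211 with TMM factors, 195 with DESeq2 size factors, 192 with cells weighted alike, 71 with thinned cells, 189 without the top cell, 42 and 652 with minimums of 300 and 10 UMIs, and 71 over free RNA. Those lower were 93 (TMM), 100 (DESeq2), 54 (thinned), 100 without cells holding 2 dendritic cell genes, and 64 and 1238 with 300 and 10 UMIs. At 28 dpi against sham the higher counts were 79 (TMM), 79 (DESeq2), 70 (weighted), 25 (thinned), 18 and 467 (300 and 10 UMIs) and 25 (over free RNA), and the lower ones 43, 41, 24 (TMM, DESeq2, thinned), 40 (without dendritic cell genes), 23 and 851. At 28 against 7 dpi the higher counts were 13 (thinned), 32 (without dendritic cell genes), 37 (without Prg4 and Alox15 cells), 19 and 646, and the lower ones 24 (thinned), 19 and 579. For PLX5622 at 7 dpi the higher counts were 43 (TMM), 135 (weighted), 34 (thinned), 23 (without the top cell), 18 and 853, and the lower ones 60 (thinned), 89 (without Prg4 and Alox15 cells), 294 (without the top cell), 41 and 918, and 64 (over free RNA). At 28 dpi they were 55 (totals without ribosomal genes), 7 (thinned), 18 (without dendritic cell genes), 17 (without Prg4 and Alox15 cells), 16 and 480 higher, and 54 (thinned), 73, 81, 53 and 1294 lower under the same settings.

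Directions reversed as follows. At 7 dpi against sham, cells without 2 dendritic cell genes gave Retnla at 4.91, H2-Aa at 0.10, Cd74 at 0.43 and the MHC class II median at 0.43. Thinning gave that median as 0.036, weighting gave Thbs1 as -0.044, and leaving out Prg4 and Alox15 cells gave Slpi as -0.72. At 28 dpi against sham, H2-Aa was 0.12 (weighted), 0.18 (thinned), 0.27 (without dendritic cell genes) and 0.070 (without Prg4 and Alox15 cells), Cd74 was 0.13, 0.18, 0.54 and 0.10, and the MHC class II median 0.12, 0.18, 0.30 and 0.060. Isg15 was -0.46 without dendritic cell genes, and Fabp4 was -0.073 and Fn1 -1.18 without Prg4 and Alox15 cells. For PLX5622 at 7 dpi, leaving out cells with dendritic cell genes, 20 of 29, gave Il7r -0.56, AA467197 -0.12, Klrd1 -1.31, H2-Aa -0.32, H2-Eb1 -1.46 and the MHC class II median -0.37. The chemokine median was 0.14 there and 0.52 with thinned cells. S100a8 was -3.16, -0.99 and -4.82, and S100a9 -2.15, -1.11 and -3.58, without cells holding genes of another type, without dendritic cell genes and without the top cell. For PLX5622 at 28 dpi, Fn1 was 0.20 without Prg4 and Alox15 cells.

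The number of cells limits the PLX5622 libraries: where 0 of 14, 29 or 63 cells were seen, 3 counts of the total are 21.4, 10.3 and 4.76%.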
